A study of Mus musculus with 7 samples.

Results

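The 8 genes described here are Hmgcs1, Sqle, Idi1, Fdft1, Lss, Cyp51, Srebf2 and Insig1, a group of cholesterol synthesis genes and targets of the transcription factor SREBP2. They were chosen by name and matched to 1 Ensembl gene each among the 29267 genes of the tables. Their RNA was measured in 7 mouse libraries, with 1 library in each group and no replicates. OG2 mouse embryonic fibroblasts (MEFs), which carry a GFP reporter of Oct4, had received Oct4, Sox2, Klf4 and c-Myc by retroviral infection, so all 6 OG2 libraries share these factors and the reporter. MEFs reprogrammed in mES medium, which contains fetal bovine serum, LIF and vitamin C, were sorted into mES GFP+ and mES GFP- cells. MEFs reprogrammed in 5C medium, a serum-free DMEM/F12 medium with N2, bFGF, LIF and vitamin C, were sorted into 5C GFP+ and 5C GFP- cells. These 4 sorted fractions are given as passage 0. Sorted 5C GFP+ cells were also taken into naive medium (N2, B27, LIF and the inhibitors CHIR99021 and PD0325901) or primed medium (N2, B27, bFGF and activin A), and both of these libraries are labelled passage 20. Cells of these names are elsewhere described as kept in those media for 3 days, so how long the naive and primed libraries had been in culture is uncertain. The last library, R1 ESC (primed), is an established mouse embryonic stem cell line brought to the primed state, also at passage 20. MEF feeders were used while it was being primed. It was later grown on a coat of serum, in a primed medium whose growth factors were exchanged for CHIR99021 and IWR-1. A GFP- fraction is a mixture of all cells that had not switched on the reporter.

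Cholesterol is made from acetyl-CoA through mevalonate, isoprenoid units, squalene and lanosterol. When sterols are scarce in the endoplasmic reticulum, SREBP2 is escorted to the Golgi by SCAP, is cut there by site-1 and site-2 proteases, and switches on the genes of the pathway. When sterols are plentiful, INSIG proteins hold SCAP and SREBP2 back, so that Insig1 is both a target and an inhibitor of the same system. SREBP2 binds short sterol regulatory elements, mostly together with the general factors NF-Y (which binds CCAAT boxes) and SP1 (which binds GC boxes).

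Because the group is defined by this shared regulator, the upstream sequences of its members were searched for these 3 elements. RefSeq promoters on GRCm38.p6, each the 250 bases before a gene start, were at hand for 6 of the 8 members and not for Sqle and Fdft1. Searched on both strands, the sterol regulatory letters TCACNCCAC stood in 1 of the 6, Hmgcs1, and in 1.05% of all 32851 promoters. A version shorter by 1 letter, TCACNCCA, was added after the promoters were read. It was found in Hmgcs1 and Srebf2, and in 3.67% of all promoters, and it contains the Hmgcs1 match. CCAAT was found in 6 of 6 members and in 33.8% of all promoters, and GGGCGG in 6 of 6 and in 32.7%. These windows end at the RefSeq start. By the GENCODE M21 start, all matches in Idi1 and the CCAAT of Cyp51 lie inside the gene and not upstream of it. So do the GGGCGG matches of Srebf2, except the one 211 to 206 bases before the RefSeq start. The share of G and C was 51.2% to 73.6% in the 6 member promoters, above 60% in 5 of them, against a median of 52.4% over all promoters. The 2 promoters with sterol regulatory letters are printed here from 5' to 3' on the strand of the gene, with the matches of all motifs in capitals (ATTGG and CCGCCC are CCAAT and GGGCGG on the other strand). The Hmgcs1 stretch is chr13:119690101-119690350 (+) and holds its sterol element 137 to 129 bases before the RefSeq start. The Srebf2 stretch is chr15:82147019-82147180 (+), which ends where the GENCODE M21 gene begins, with its element 162 to 155 bases before the RefSeq start.
Hmgcs1: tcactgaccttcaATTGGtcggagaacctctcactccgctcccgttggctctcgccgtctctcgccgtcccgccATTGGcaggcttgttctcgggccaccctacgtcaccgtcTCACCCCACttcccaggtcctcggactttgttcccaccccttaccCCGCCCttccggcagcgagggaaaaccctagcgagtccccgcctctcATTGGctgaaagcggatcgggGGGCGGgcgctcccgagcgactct
Srebf2: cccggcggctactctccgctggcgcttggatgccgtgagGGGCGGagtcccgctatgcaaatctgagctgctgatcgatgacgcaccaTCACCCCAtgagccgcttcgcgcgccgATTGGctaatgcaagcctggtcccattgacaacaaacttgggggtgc
A match of letters is a description of these windows and not a measured binding site.

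All 8 genes were well above detection, at a TPM (the standard RNA-seq level per length, scaled to the same total in each library) of at least 1 in every library. One read on a detected gene of median length was worth 0.0690 to 0.138 TPM, from libraries of 6108252 to 11496615 expected counts. Summed over the 8 members, the level was 743 TPM in mES GFP+, 1168 in mES GFP-, 1057 in 5C GFP+, 1626 in 5C GFP-, 672 in 5C GFP+ (naive), 1468 in 5C GFP+ (primed) and 1276 in R1 ESC (primed). The sum was thus lowest in the naive and mES GFP+ libraries and highest in 5C GFP- and the 2 primed libraries. The sum gives most weight to Hmgcs1, the most abundant member. By the median log2(TPM + 1) of the 8 members, the naive (6.41) and mES GFP+ (6.53) libraries were again the lowest and 5C GFP- (7.61) the highest, while mES GFP- (7.28) stood beside 5C GFP+ (primed, 7.23), 5C GFP+ (7.18) and R1 ESC (primed, 7.11). The naive library was the lowest of the 7 for 7 members and mES GFP+ for the remaining one, Cyp51. 5C GFP- was the highest for 5 members and 5C GFP+ (primed) for Hmgcs1, Lss and Cyp51.

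The libraries were checked against markers of cell type and state. Summed TPM of 8 fibroblast markers, such as collagen genes, was 8.0 to 11.1 in the mES GFP+, 5C GFP+ and naive libraries, with 4 of the 8 markers under 1 TPM in each, and was 605 in mES GFP-, 303 in 5C GFP-, 73.3 in 5C GFP+ (primed) and 209 in R1 ESC (primed). The 8 pluripotency markers summed to 5480 to 7389 TPM in mES GFP+, 5C GFP+ and the naive library, 1559 and 1715 in the primed libraries, and 195 and 512 in the GFP- libraries. The 5 primed markers, Fgf5, Otx2, Pou3f1, Zic2 and Dnmt3b, summed to 1441 and 1322 TPM in the primed libraries and 702 in 5C GFP+, against 120 to 216 in the other 4. The 7 proliferation markers summed to 755 TPM in mES GFP- and 1765 to 2427 elsewhere. In such bulk libraries, fewer cells of a kind and less RNA per cell cannot be told apart.

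**Figure D1:**
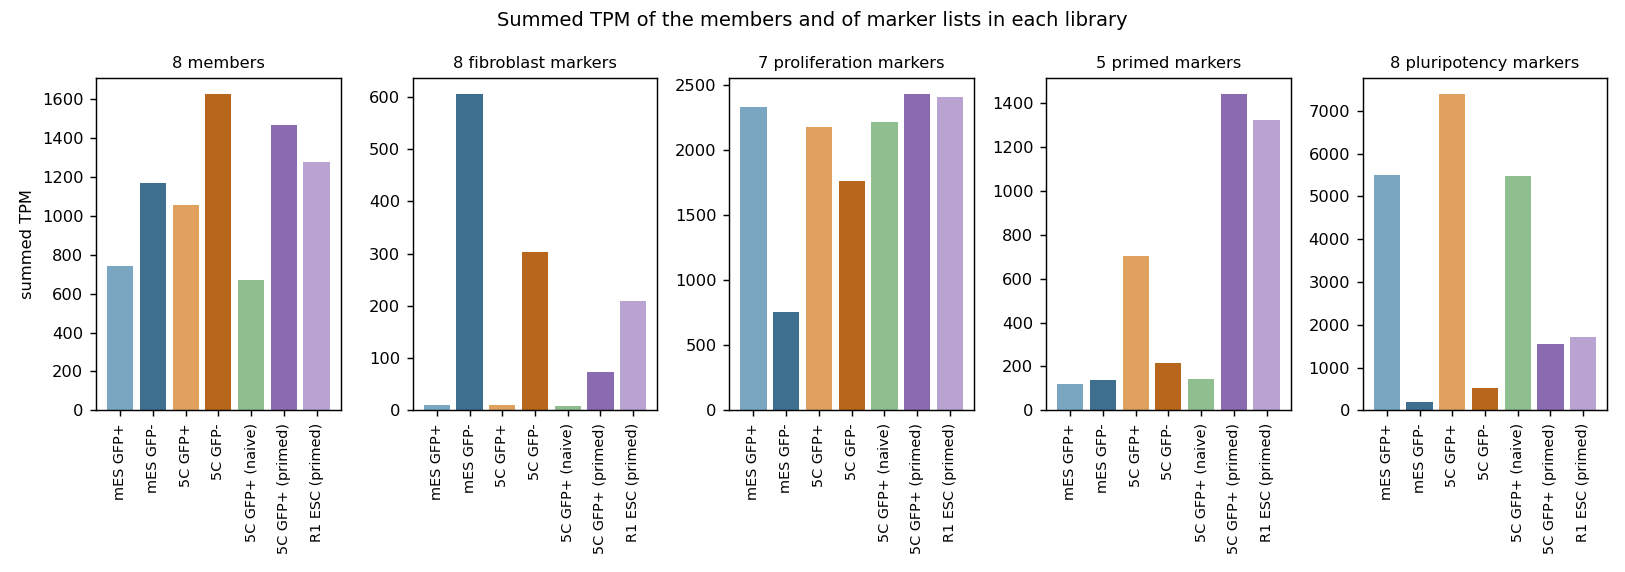
Summed TPM (y axis of each panel, starting at 0) of the 8 members and of 4 marker lists, 1 bar per library and no replicates. The members are lowest in 5C GFP+ (naive), at 672, and highest in 5C GFP-, at 1626, while fibroblast markers are highest in mES GFP-, at 605.

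The levels of single members are given first, in the order of the pathway. Intervals are exact 95% intervals for counting error of reads, and with 1 library per group they hold nothing about variation between cultures. Hmgcs1 (ENSMUSG00000093930, chr13:119690379-119708260, + strand) encodes the cytosolic synthase that makes HMG-CoA. Its level was 194 TPM in mES GFP+, 217 in mES GFP-, 210 in 5C GFP+, 426 in 5C GFP-, 165 in 5C GFP+ (naive), 468 in 5C GFP+ (primed) and 389 in R1 ESC (primed). Hmgcs1 was the highest member in all 7 libraries, and its levels fell into a lower set of 4 and a higher set made of 5C GFP- and the 2 primed libraries. Within the lower set, mES GFP- and 5C GFP+ did not differ beyond counting error (ratio 1.04, 0.99 to 1.09).

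Idi1 (ENSMUSG00000058258, chr13:8885501-8892451, + strand) encodes the isomerase that interconverts the isoprenoid units. It measured 52.3 TPM in mES GFP+, 147 in mES GFP-, 95.3 in 5C GFP+, 211 in 5C GFP-, 49.5 in 5C GFP+ (naive), 151 in 5C GFP+ (primed) and 147 in R1 ESC (primed). In TPM the highest library was 4.26-fold over the lowest, the widest range among the 8 genes on that scale. Among the 2 primed libraries and mES GFP-, which follow each other in the order, no neighbours differed beyond counting error, nor did mES GFP+ and the naive library (ratio 1.06, 0.94 to 1.19).

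Fdft1 (ENSMUSG00000021273, chr14:63145150-63179578, - strand), squalene synthase, takes the first step committed to sterols. Its level was 138 TPM in mES GFP+, 164 in mES GFP-, 152 in 5C GFP+, 224 in 5C GFP-, 118 in 5C GFP+ (naive), 144 in 5C GFP+ (primed) and 132 in R1 ESC (primed). Only 5C GFP- stood well above the rest, and the 4 libraries from 5C GFP+ down to R1 ESC (primed) formed a chain in which no neighbours differed beyond counting error. The range was 1.90-fold. Sqle (ENSMUSG00000022351, chr15:59315077-59331192, + strand), the squalene epoxidase, had a similar range of 1.89-fold in another order. Sqle was at 88.9 TPM in mES GFP+, 117 in mES GFP-, 135 in 5C GFP+, 167 in 5C GFP-, 88.4 in 5C GFP+ (naive), 158 in 5C GFP+ (primed) and 143 in R1 ESC (primed). For Sqle the mES GFP+ and naive libraries were level (ratio 1.01, 0.92 to 1.10).

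Lss (ENSMUSG00000033105, chr10:76531588-76557138, + strand) encodes lanosterol synthase, which closes the sterol rings. It measured 41.1 TPM in mES GFP+, 53.8 in mES GFP-, 65.5 in 5C GFP+, 79.1 in 5C GFP-, 34.9 in 5C GFP+ (naive), 129 in 5C GFP+ (primed) and 114 in R1 ESC (primed). Both primed libraries stood above all others, and every pair of neighbours in the order differed beyond counting error. These levels rest on a gene length that RSEM weights by transcript abundance, and for Lss that length was 2859 bases in mES GFP+, 4716 in mES GFP-, 4256 in 5C GFP+, 4767 in 5C GFP-, 2615 in the naive library, 3347 in 5C GFP+ (primed) and 3315 in R1 ESC (primed). Reads assigned to Lss without division by length, as CPM (expected counts scaled to the library total), were 62.4 in mES GFP+, 125 in mES GFP-, 150 in 5C GFP+, 190 in 5C GFP-, 50.9 in the naive library, 232 in 5C GFP+ (primed) and 198 in R1 ESC (primed). On that scale the 2 GFP- libraries and 5C GFP+ were further above mES GFP+ and the naive library than in TPM. Which transcripts of Lss carried the reads was not tested, since the tables are per gene. The length of Idi1 also varied, from 2519 to 3027 bases, and that of Cyp51 from 3579 to 3931, while the other 5 members varied by 0.3% or less. In CPM, Idi1 ran from 78.5 in the naive library to 305 in 5C GFP-, a narrower fold range than that of Lss.

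**Figure D2:**
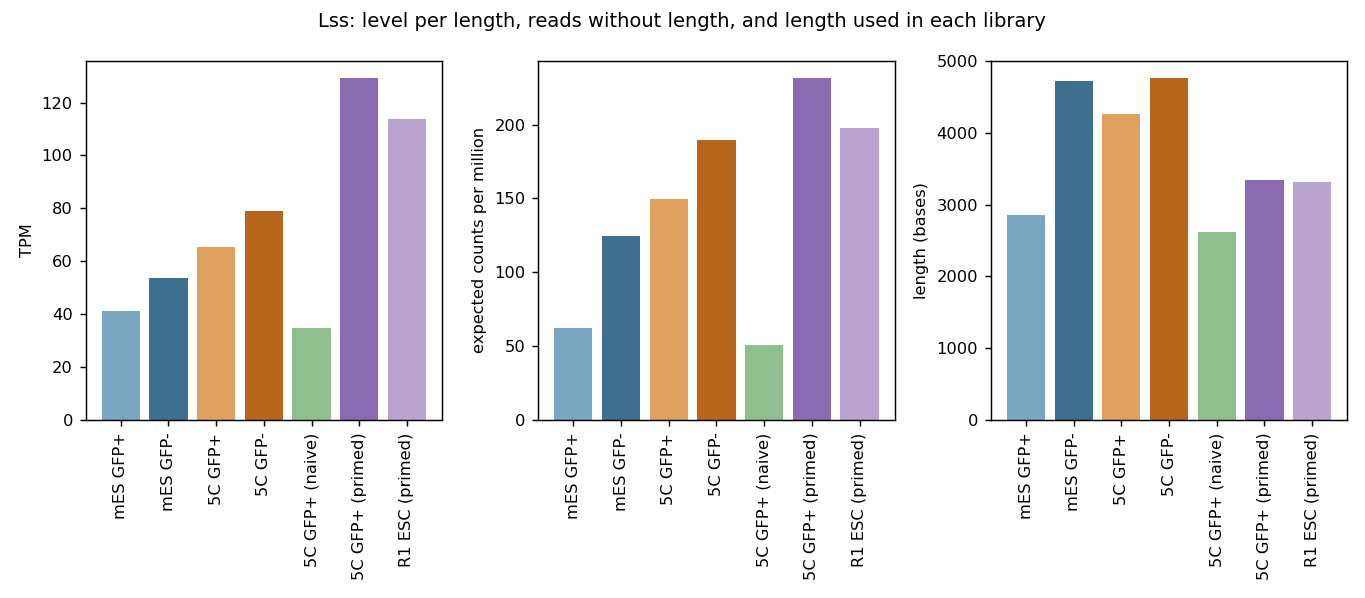
Lss in each library as TPM, in CPM, and as the gene length in bases that separates the 2 scales (y axes from 0, 1 bar per library). Length runs from 2615 in 5C GFP+ (naive) to 4767 in 5C GFP-, so the order of the libraries is the same on both scales but 5C GFP- lies closer to the primed libraries in CPM than in TPM.

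Cyp51 (ENSMUSG00000001467, chr5:4081145-4104746, - strand) encodes the demethylase that acts on lanosterol. Its level was 41.3 TPM in mES GFP+, 116 in mES GFP-, 87.1 in 5C GFP+, 132 in 5C GFP-, 46.7 in 5C GFP+ (naive), 147 in 5C GFP+ (primed) and 100.5 in R1 ESC (primed). mES GFP+ and the naive library lay apart from the other 5. Cyp51 and Idi1 had the most alike patterns of all 28 pairs of members, with a Pearson r of 0.96 over 7 libraries on the log2(TPM + 1) scale, and the least alike pair was Fdft1 and Lss at 0.25. The median over the 28 pairs was 0.79. The libraries share cells of origin, so these values describe the pattern only.

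Srebf2 (ENSMUSG00000022463, chr15:82147181-82205379, + strand) encodes SREBP2 itself. It was at 94.4 TPM in mES GFP+, 192 in mES GFP-, 155 in 5C GFP+, 195 in 5C GFP-, 90.1 in 5C GFP+ (naive), 163 in 5C GFP+ (primed) and 144 in R1 ESC (primed). The 2 GFP- libraries were level (ratio 1.01, 0.97 to 1.06), as were mES GFP+ and the naive library (ratio 1.05, 0.98 to 1.12). Insig1 (ENSMUSG00000045294, chr5:28071363-28078662, + strand) was at 93.7 TPM in mES GFP+, 161 in mES GFP-, 156 in 5C GFP+, 194 in 5C GFP-, 79.7 in 5C GFP+ (naive), 109 in 5C GFP+ (primed) and 107 in R1 ESC (primed). In both primed libraries Insig1 was below 5C GFP+, as Fdft1 was by a smaller margin, and Insig1 was the lowest of the 8 members in 5C GFP+ (primed).

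**Figure D3:**
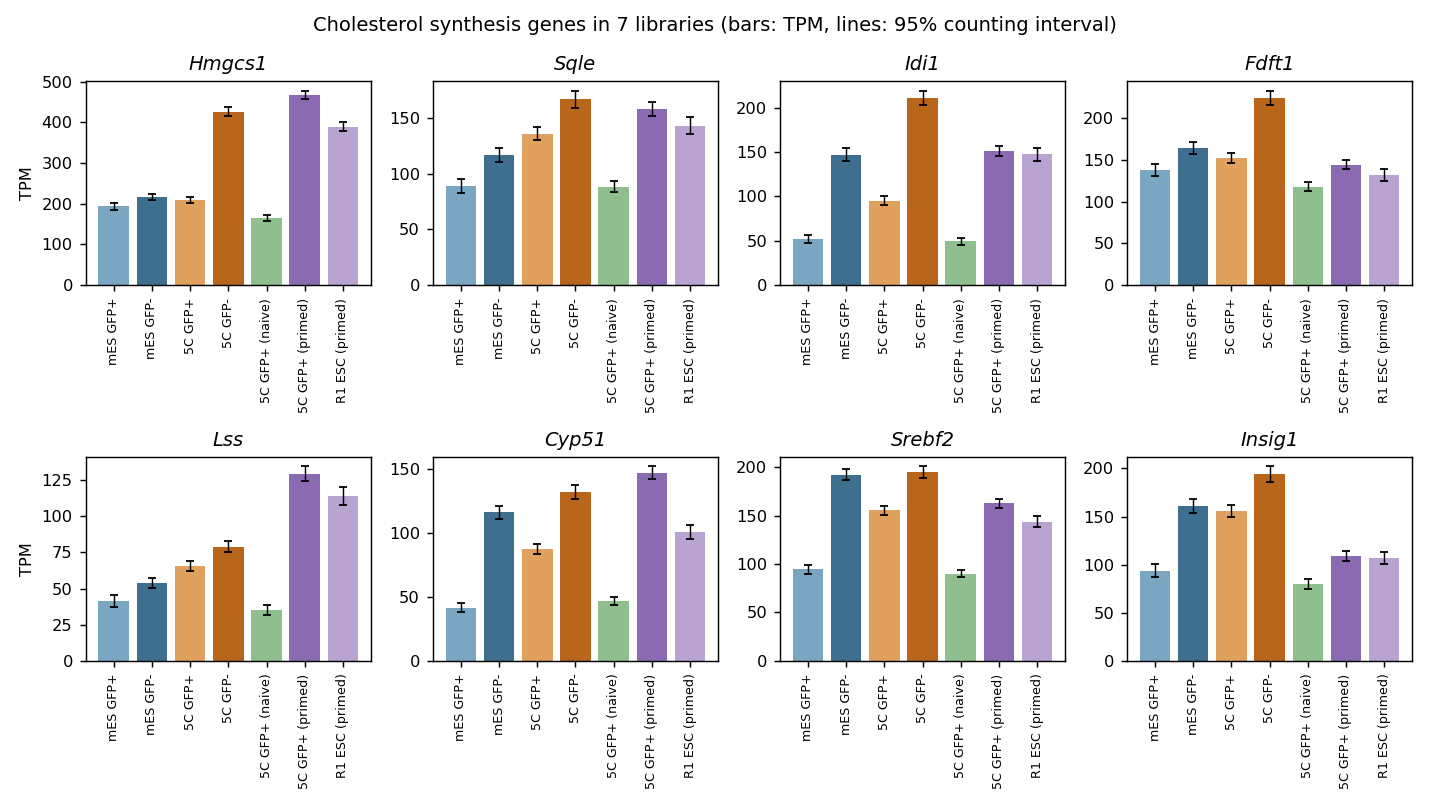
TPM of each member (1 panel per gene, y axis from 0) in the 7 libraries, with 1 bar per library and lines for the 95% counting interval. For 7 of the 8 genes the naive bar is the lowest, and Insig1 alone has both primed bars well below 5C GFP+.

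The first comparison asks how the members differ between the culture media at reprogramming. A difference is given on the log2(TPM + 1) scale, and a gene is counted past 2-fold at a difference of at least 1 in size, among genes that reached 1 TPM in one of the pair. Between 5C GFP+ and mES GFP+, all 8 members were higher in 5C GFP+, by 0.11 to 1.06, with a median of 0.69 against -0.06 for all 15196 genes, of which 46.6% were above 0. One member, Cyp51, was past 2-fold higher (ratio 2.11, 1.92 to 2.33) and none was lower, where 13.7% of all genes were past 2-fold higher and 13.5% lower. Idi1 (ratio 1.82, 1.65 to 2.02), Insig1 (1.66, 1.53 to 1.80), Srebf2 (1.65, 1.55 to 1.75) and Sqle (1.52, 1.40 to 1.65) followed. Hmgcs1, at the start of the pathway, was nearly level (1.08, 1.03 to 1.14), as was Fdft1 (1.11, 1.03 to 1.18). Lss had a ratio of 1.60 (1.43 to 1.79) in TPM and 2.40 in CPM. Fibroblast markers summed to 11.1 and 10.9 TPM in this pair, and proliferation markers to 2179 and 2330. Primed markers, at 702 and 120 TPM, moved with the members, and their part in the result was not tested.

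In the GFP- cells, all 8 members were likewise higher in 5C medium, by 0.02 to 0.97, with a median of 0.48 against 0.03 for all 15859 genes, of which 52.4% were above 0. None was past 2-fold in either direction, against 9.68% of all genes higher and 10.1% lower. Hmgcs1, nearly level in the GFP+ pair, had the largest ratio here (1.96, 1.88 to 2.05). Srebf2 was level (1.01, 0.97 to 1.06), and its sign turned when libraries were rescaled by the median ratio. Cyp51 had a ratio of 1.14 (1.07 to 1.21) and Insig1 of 1.20 (1.13 to 1.28). Lss (1.47), Sqle (1.43), Idi1 (1.43, or 1.69 in CPM) and Fdft1 (1.37) lay between these and Hmgcs1. The members with the larger ratios were therefore not the same in the 2 fractions, although no test of that difference was possible. Summed fibroblast markers were lower in 5C GFP- than in mES GFP- (303 against 605 TPM), with 6 of the 8 lower and 2 higher, Thy1 by 2.48. Proliferation markers were higher in 5C GFP- (1765 against 755 TPM), as was each of the 7. The part of either list in the result was not tested.

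Within each medium, the sorted fractions were compared. All 8 members were lower in mES GFP+ than in mES GFP-, by 0.16 to 1.48, with a median of -0.58 against -0.15 for all genes. Idi1 (ratio 0.36, 0.32 to 0.39), Cyp51 (0.36, 0.32 to 0.39) and Srebf2 (0.49, 0.46 to 0.52) were past 2-fold lower, 3 of 8 members, where 28.8% of all 16294 genes were past 2-fold lower and 17.9% higher. The Srebf2 call was lost, leaving 2 members, with median-ratio rescaling, FPKM or CPM. The remaining 5 ran from Insig1 (0.58, 0.54 to 0.63) to Hmgcs1 (0.89, 0.84 to 0.94). Lss was at 0.76 (0.68 to 0.86) in TPM and at 0.50 in CPM. In CPM, Idi1 was at 0.47 and Cyp51 at 0.40, both outside their intervals in TPM.

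In 5C medium all 8 members were again lower in the GFP+ fraction, by 0.27 to 1.14, with a median of -0.44 against -0.25 for all genes. Idi1 (ratio 0.45, 0.42 to 0.48) and Hmgcs1 (0.49, 0.47 to 0.51) were past 2-fold lower, and none higher, where 22.6% of all 15675 genes were lower and 8.45% higher. Fewer members passed after rescaling, with none by the median ratio and 1 by FPKM or in CPM. Hmgcs1 had the smallest difference of the 8 in mES medium and the second largest in 5C medium. Fibroblast markers moved with the members in both media, from 10.9 to 605 TPM and from 11.1 to 303 TPM between GFP+ and GFP-. The sum of pluripotency markers moved the other way, from 5500 to 195 TPM and from 7389 to 512 TPM. So did that of proliferation markers, from 2330 to 755 TPM and from 2179 to 1765 TPM. Gene by gene, 7 of 8 pluripotency markers were higher in GFP+ cells in mES medium and 1 was lower, and all 8 were higher in 5C medium. All 7 proliferation markers were higher in GFP+ cells in mES medium, while in 5C medium 5 were higher and 2 lower. Dppa5a alone made up 4714 TPM of the pluripotency sum in 5C GFP+. Primed markers went against the members in 5C medium, at 702 TPM in GFP+ and 216 in GFP- cells. There, 4 of the 5 were higher in GFP+ cells and 1 was lower. In mES medium they summed to 120 TPM in GFP+ and 140 in GFP- cells, with 2 higher and 3 lower in GFP+. The part of these markers in the results was not tested.

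**Figure D4:**
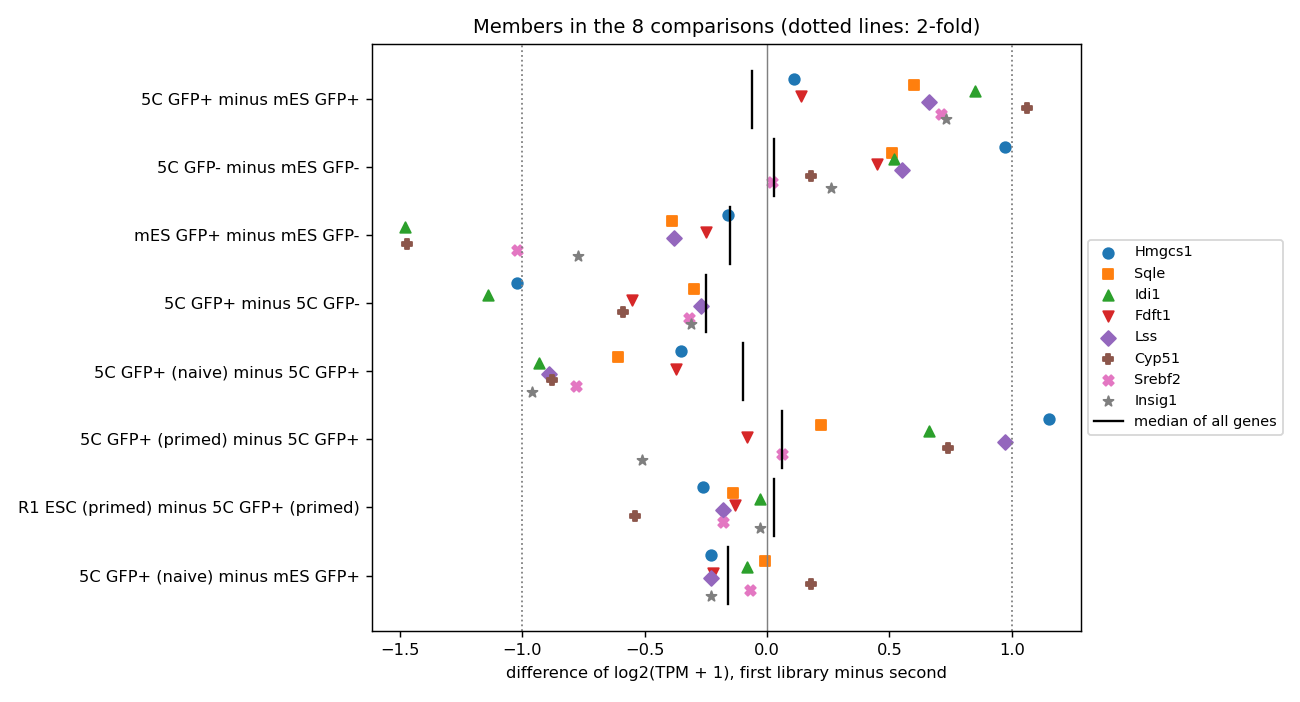
Difference of log2(TPM + 1), first library minus second (x axis), for the 8 members in the 8 comparisons (rows), with a black line for the median of all genes and dotted lines at 2-fold. All 8 members lie right of 0 in both comparisons of 5C with mES medium and left of 0 in both comparisons of GFP+ with GFP- and in naive against 5C GFP+.

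The next comparisons follow 5C GFP+ cells into the other media and share that library. In naive medium all 8 members were lower, by 0.35 to 0.96, with a median of -0.83 against -0.10 for all genes. None was past 2-fold in TPM, against 17.5% of all 14863 genes lower and 10% higher, although Insig1 (ratio 0.51, 0.47 to 0.55), Idi1 (0.52, 0.47 to 0.57), Lss (0.53, 0.48 to 0.59) and Cyp51 (0.54, 0.49 to 0.58) came close. In CPM, Lss was at 0.34. Srebf2 was at 0.58 (0.55 to 0.61), Sqle at 0.65 (0.61 to 0.70), Hmgcs1 at 0.79 (0.75 to 0.83) and Fdft1 at 0.77 (0.73 to 0.83). Fibroblast markers summed to 8.0 and 11.1 TPM and proliferation markers to 2214 and 2179 TPM in this pair, while primed markers, at 141 and 702 TPM, moved with the members.

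The naive library ended at levels near those of mES GFP+. The 8 differences between these libraries were -0.23 to 0.18, with a median of -0.15 against -0.16 for all genes, and none was past 2-fold (6.27% of all 14477 genes were lower and 2.49% higher). For Sqle, Idi1 and Srebf2 the interval of the ratio included 1, at 0.99 (0.91 to 1.09), 0.95 (0.84 to 1.07) and 0.95 (0.89 to 1.02). All 3 changed sign when libraries were rescaled by the median ratio, and Sqle and Srebf2 also with FPKM or CPM.

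In primed medium the members split. Hmgcs1 was past 2-fold higher than in 5C GFP+ (ratio 2.23, 2.15 to 2.32), followed by Lss (1.98, 1.85 to 2.10), Cyp51 (1.68, 1.59 to 1.78) and Idi1 (1.58, 1.48 to 1.69). Sqle was slightly higher (1.16, 1.10 to 1.23). Srebf2 (1.05, 1.00 to 1.09) and Fdft1 (0.95, 0.90 to 1.00) were nearly level, and Insig1 was lower (0.70, 0.66 to 0.74). The median was 0.44 against 0.06 for all 15067 genes. One of 8 members was past 2-fold higher and none lower, where 13.7% of all genes were higher and 16.1% lower. In CPM the Lss ratio was 1.55. Fibroblast markers, at 73.3 and 11.1 TPM, and primed markers, at 1441 and 702 TPM, moved with the higher members, and their part was not tested.

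The R1 ESC (primed) library served as a primed reference. All 8 members were lower in it than in 5C GFP+ (primed), by 0.03 to 0.54, with a median of -0.16 against 0.03 for all 14600 genes. None was past 2-fold (2.30% of all genes were lower and 5.09% higher). Cyp51 was furthest away (ratio 0.69, 0.64 to 0.73), and Idi1 (0.98, 0.92 to 1.04) and Insig1 (0.98, 0.91 to 1.06) did not differ beyond counting error. Insig1 was again low beside the other members, at 107 TPM. Fibroblast markers were higher in the R1 library, at 209 against 73.3 TPM.

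The other 14 enzymes of sterol synthesis were read in the same way. Summed with the 6 enzymes among the members, the 20 enzymes were at 1564 TPM in mES GFP+, 2390 in mES GFP-, 2016 in 5C GFP+, 3129 in 5C GFP-, 1424 in 5C GFP+ (naive), 3291 in 5C GFP+ (primed) and 2813 in R1 ESC (primed). The naive and mES GFP+ libraries were thus again the lowest, and 5C GFP+ (primed) was the highest. Of the 14, 4 were past 2-fold higher in 5C GFP+ than in mES GFP+, namely the mevalonate kinase Mvk (ratio 2.07), the phosphomevalonate kinase Pmvk (2.39), the decarboxylase Mvd (2.14) and the reductase Dhcr7 (2.17), and 1 was lower, against 13.7% and 13.5% of all genes. Of the same 14, none was past 2-fold between 5C GFP- and mES GFP-. Between mES GFP+ and mES GFP-, 4 were past 2-fold lower (Pmvk, Nsdhl, Hsd17b7 and Sc5d), and between 5C GFP+ and 5C GFP-, 2 were (Hsd17b7 and Sc5d). These are near or under the 28.8% and 22.6% of all genes that were lower in the same pairs.

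In naive medium, 5 of the 14 were past 2-fold lower than in 5C GFP+, with Mvd at 0.39 (0.33 to 0.45), and 1 was higher, against 17.5% and 10% of all genes. In primed medium 5 of the 14 were past 2-fold higher and none lower, with the desaturase Sc5d at 2.96 (2.54 to 3.45) and the reductase Tm7sf2 at 2.64 (2.15 to 3.26), against 13.7% of all genes higher. None of the 14 was past 2-fold between the 2 primed libraries or between the naive library and mES GFP+. In 5C GFP+ against mES GFP+, and in naive medium against 5C GFP+, 2 of the 14 had the opposite sign to the other 12. They were Tm7sf2 (ratios 0.72 and 1.14) and, past 2-fold, Ebp, the sterol isomerase that acts after the Cyp51 step. For the Tm7sf2 ratio of 1.14 the counting intervals overlapped, so it gives no direction. They were 17.4 to 25.7 TPM in the naive library and 15.6 to 22.2 in 5C GFP+. Ebp was at 138 TPM in mES GFP+, 137 in mES GFP-, 48.4 in 5C GFP+, 85.4 in 5C GFP-, 132 in 5C GFP+ (naive), 44.2 in 5C GFP+ (primed) and 34.8 in R1 ESC (primed). Ebp was high in both mES libraries and in the naive library, with a ratio of 0.35 (0.30 to 0.41) between 5C GFP+ and mES GFP+ and of 2.72 (2.35 to 3.17) between the naive library and 5C GFP+.

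**Figure D5:**
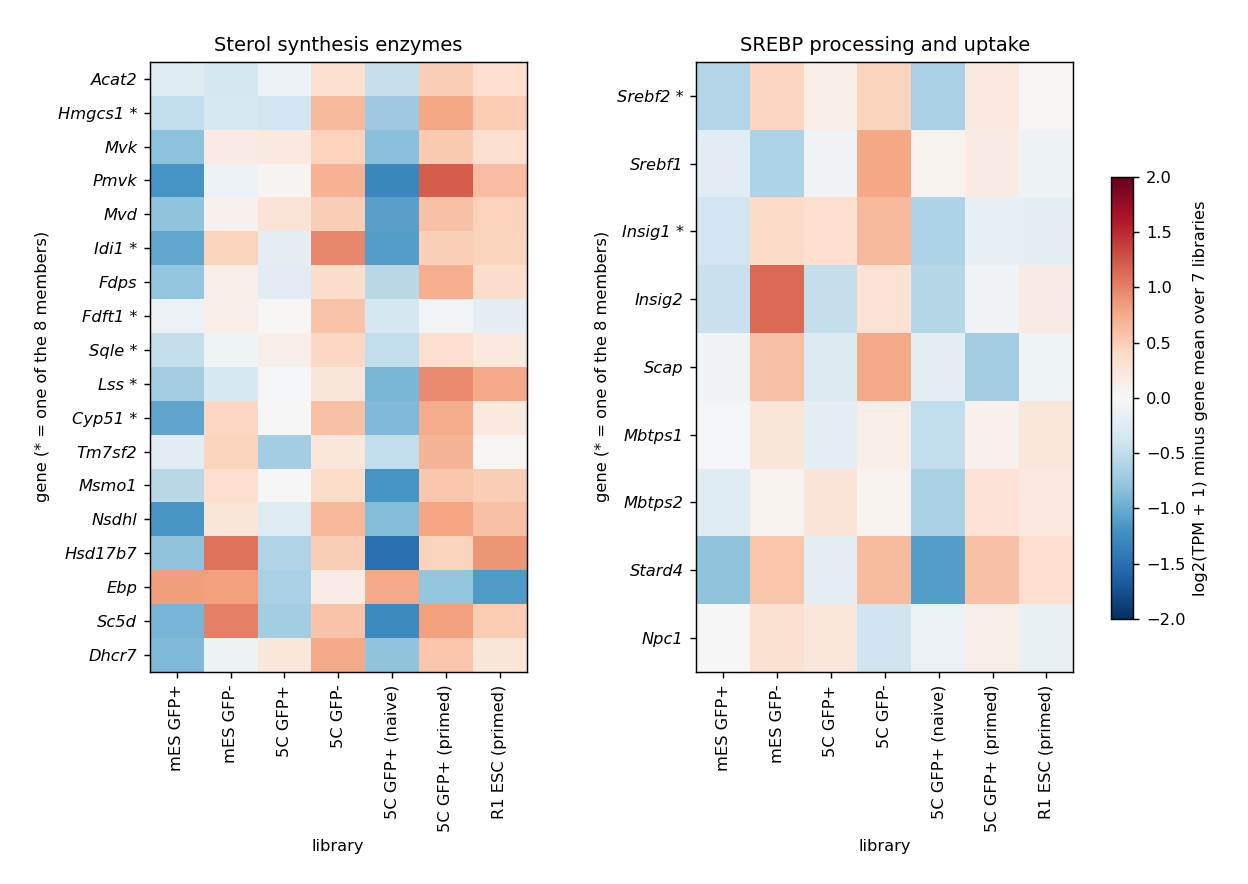
Log2(TPM + 1) minus the mean of the gene over 7 libraries (colour, red above and blue below) for 18 sterol synthesis enzymes in pathway order and for 9 genes of SREBP control and sterol uptake. Most enzymes are blue in mES GFP+ and 5C GFP+ (naive), while Ebp is red in both.

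The 9 related genes of SREBP processing and sterol uptake varied in other ways. Stard4, which encodes a sterol carrier of the cytosol, was higher in 5C GFP+ than in mES GFP+ (ratio 1.53) and higher in primed medium than in 5C GFP+ (1.76). The 9 genes together had a median difference of 0.22 between 5C GFP+ and mES GFP+ and of -0.34 between the naive library and 5C GFP+, smaller in size than those of the members.

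The close relatives of 2 members were compared with them in TPM. Srebf1, which encodes the SREBP1 proteins, was at 85.7 TPM in mES GFP+, 65.5 in mES GFP-, 96.2 in 5C GFP+, 173 in 5C GFP-, 106 in 5C GFP+ (naive), 114 in 5C GFP+ (primed) and 94.0 in R1 ESC (primed). Srebf2 exceeded Srebf1 in 6 of the 7 libraries, by up to 2.93 times in mES GFP-, and was below it in the naive library, at 0.85 times. The length used for Srebf1 ran from 2435 bases in mES GFP+ to 3431 in mES GFP-, and these ratios depend on it. Insig1 exceeded Insig2 in every library, from 3.98 times in mES GFP- to 12.4 times in 5C GFP+.

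Ranked by Pearson r over the 7 libraries with the mean log2(TPM + 1) of the 8 members, 10000 other genes that reached 5 TPM in some library and had a log2 range of at least 1 were set in order. The 10 genes most like the members included Fabp5 (r 0.993), Egr3, Mapk11, Arnt2, Slc9a5, B4galt2, Crnde, B4galt4 and Atad1 (r 0.985). Fabp5 encodes a fatty acid binding protein, and Egr3 a transcription factor. None of the 10 is a sterol synthesis enzyme. Mvk came at place 35, Dhcr7 at 54, Mvd at 78 and Ebp at 8050. Of the 14 other enzymes, 11 had an r of at least 0.8, against 15.5% of the ranked genes. Only 13 of the 14 were ranked, and the 11 include the unranked Acat2 (r 0.801), whose log2 range was under 1. Against the mean of the other 7 members, Idi1 (0.973), Sqle (0.958), Cyp51 (0.953) and Srebf2 (0.905) were closest, followed by Hmgcs1 (0.811) and Lss (0.770), and Insig1 (0.658) and Fdft1 (0.655) were furthest. With 7 libraries that share cells of origin, these values order the genes and carry no test.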

How the data were processed

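RNA was extracted with TRIzol, made into TruSeq v2 libraries and sequenced on an Illumina MiSeq, as stated by the authors. Reads were processed by the authors with RSEM, and the submitters' processing notes also name Bowtie and mm10. For each Ensembl gene the authors deposited expected counts, which are RSEM's estimate of its reads before any normalization. The deposited TPM values are those counts divided by effective length and scaled to the same sum in each library, and the deposited FPKM values are scaled to mapped fragments instead.

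TPM served as the main measure. Groups came from the labels, with 1 library per group, so no test was possible and no p-value is given. Differences were taken on log2(TPM + 1) in 8 comparisons, over genes that reached 1 TPM in one of the pair, and genes past 2-fold were counted. Exact 95% intervals were computed from the expected counts (Poisson for a level, binomial for a ratio) and cover counting error only. Gene positions are from GENCODE M21 on GRCm38, and promoters are from RefSeq (GRCm38.p6). Members and lists were chosen with earlier results of these data known. The 5C GFP+ library enters 4 of the 8 comparisons. Beside the members, the rule named Srebf1 and Insig2, the 2 genes of each list with the largest difference in the 2 medium comparisons and in naive and primed against 5C GFP+, and the 10 genes most like the members. Marker lists are given as sums, and some genes the rule named are not reported here. Mvk, Nsdhl, Hsd17b7, Npc1, Acly and Elovl6 were named after their values were seen. The scripts, which used Python 3.11.15, numpy 2.4.6, pandas 2.3.3 and scipy 1.17.1, were tested on simulated data. Alternatives were another pseudocount, FPKM, median-ratio rescaling, and folds of 1.5 and 3. CPM, the expected counts scaled to the library total, was added after the lengths were seen.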

Additional observations from a re-analysis of the deposited data

Results flagged for a closer look

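The 46 genes of the sterol and fatty acid lists, the 8 members included, were compared between the 2 sorted fractions and the 2 media. For 8 of the 46 the ratios lay on opposite sides of 1 beyond counting error, and 0 of these were members. They are listed because the direction was opposite. With 1 library per group the difference was not tested.

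For 5C over mES medium, Fasn, the fatty acid synthase, had a ratio of 0.56 in GFP+ and 2.44 in GFP- cells. The other fatty acid genes were Acly (0.74 and 1.65), which makes cytosolic acetyl-CoA, Acaca (0.81 and 1.54), the acetyl-CoA carboxylase, and the elongase Elovl6 (0.73 and 1.65). Scap, the escort of SREBP2, had ratios of 0.86 and 1.13, and Npc1, which exports cholesterol from lysosomes, of 1.17 and 0.61. For GFP+ over GFP- cells, Fasn had a ratio of 2.49 in mES and 0.57 in 5C medium, and Elovl6 of 1.96 and 0.87. Srebf1 had ratios of 1.31 and 0.56, Npc1 of 0.81 and 1.56, and Mbtps2, the site-2 protease that releases SREBP proteins, of 0.79 and 1.14. The Srebf1 levels used lengths of 2435 bases in mES GFP+ and 3431 in mES GFP-. Its expected counts were 674 of 6108252 in mES GFP+ and 970 of 8821887 in mES GFP-. The ratio of 1.31 thus depends on that length. Lengths of Fasn (4935 to 6678) and Mbtps2 (2373 to 3992) also varied, and CPM ratios of the flagged genes are not given here.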

How the results depend on the processing

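At a fold of 1.5, 6 members were higher in 5C GFP+ than in mES GFP+, 1 was higher in 5C GFP- than in mES GFP-, 6 were lower in the naive library than in 5C GFP+, and 4 were higher in 5C GFP+ (primed) than in 5C GFP+. At a fold of 3, there were 0 members higher in 5C GFP+ than in mES GFP+ or in 5C GFP+ (primed) than in 5C GFP+, and 0 lower in mES GFP+ than in mES GFP- or in 5C GFP+ than in 5C GFP-. Between mES GFP+ and mES GFP-, the members past 2-fold lower numbered 2 with median-ratio rescaling, FPKM or CPM. Between 5C GFP+ and 5C GFP-, the members past 2-fold lower numbered 0 with median-ratio rescaling, 1 with FPKM and 1 with CPM. With CPM, 2 members were past 2-fold higher in 5C GFP+ than in mES GFP+, 1 in 5C GFP- than in mES GFP-, and 1 was past 2-fold lower in the naive library than in 5C GFP+. That scale differs from TPM in not dividing by length.

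Of 64 differences of single members, the value moved by less than its counting interval for 64 with a pseudocount of 0.1, 50 with median-ratio rescaling, 49 with FPKM and 45 with CPM. Signs changed for 4, 2 and 2 of them under the last 3 settings. Rescaling by the median ratio moved the median of all genes by 0.14 between 5C GFP+ and 5C GFP- and by 0.12 between the naive library and mES GFP+, and FPKM moved it by 0.12 between mES GFP+ and mES GFP-. With these, the median of the members was -0.28, -0.02 and -0.46, against -0.11, -0.04 and -0.04 for all genes. The 10 genes most like the members shared 3 with the 21 genes that led by Spearman correlation, ties included. They shared 6 with a TPM minimum of 20. That minimum can only remove genes, so these 6 were bound to stay and do not check the ranking. No paired analysis was possible because each group has 1 library, and no replicate could be left out.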

Other observations

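Genes of sterol efflux and of fatty acid synthesis, which the LXR receptors and SREBP1 are known to control, did not move as one with the members. Abca1, a sterol exporter and LXR target, was at 22.1 TPM in mES GFP+, 79.4 in mES GFP-, 13.7 in 5C GFP+, 28.9 in 5C GFP-, 19.1 in 5C GFP+ (naive), 2.05 in 5C GFP+ (primed) and 4.92 in R1 ESC (primed). Abcg1, another exporter, was at 7.81, 4.36, 15.8, 13.2, 14.8, 2.74 and 3.09 TPM in the same order. Both exporters were thus lowest in the 2 primed libraries, with primed over 5C GFP+ ratios of 0.15 (0.12 to 0.19) for Abca1 and 0.17 (0.13 to 0.23) for Abcg1. Mylip, another LXR target, had a difference of 0.97 between the naive library and 5C GFP+. Of the 10 genes of fatty acid synthesis and desaturation, 3 had positive and 7 had negative differences between 5C GFP+ and mES GFP+, and 8 were positive and 2 negative in the naive library against 5C GFP+, where all 8 members were negative. Me1, the malic enzyme that supplies NADPH, had a difference of 0.95 there, and Fasn of 0.79. The Fasn value rests on lengths of 4935 bases in the naive library and 6511 in 5C GFP+. The desaturase Fads2 was higher in 5C medium in both fractions, by 0.82 and 1.51. In primed medium Acaca was higher than in 5C GFP+ by 1.25 and the desaturase Scd2 by 1.20, both past 2-fold like Hmgcs1.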
